A study of Mus musculus with 16 samples.

Results

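The 8 saline-treated mice among the 16 mice of the series were compared, 4 *Acta2-tdT* and 4 *Pdgfra-tdT* mice, chosen by their labels. RNA was sequenced from tdTomato-positive cells sorted from the left lung lobe, and the comparison asks how cells marked through *Acta2* differed from cells marked through *Pdgfra* in lungs that had received saline. All mice were males on the C57BL6 background and carried a *tdTomato* reporter, which a recombinase switches on for good. In the Acta2-CreERT2; tdTomatoflox mice the tamoxifen-responsive recombinase was driven by a transgenic *Acta2* promoter, and in the Pdgfra-CreERT2; tdTomatoflox mice by a transgenic *Pdgfra* promoter. Saline was given into the trachea, and lungs were taken 14 days later, with 11 weeks of age on the labels. *Acta2-tdT* mice ate food with 400 mg/kg tamoxifen from day 5 after saline, whereas *Pdgfra-tdT* mice had 5 injections of 3 mg tamoxifen at 6 weeks of age. The route and time of tamoxifen thus changed with the line, and what belongs to either cannot be told apart. Cells were sorted on the red label, and the details of the gating were not used here. The 8 mice of both lines that received bleomycin in place of saline, with the same tamoxifen scheme for each line, enter only the last comparison. All p-values measure the spread between mice.

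αSMA, the product of *Acta2*, is the actin of vascular and airway smooth muscle, and it is also made by some pericytes and by the myofibroblasts that ring the alveolar ducts. PDGFRα is the receptor for platelet-derived growth factor A and marks most fibroblasts of the alveolar wall and of the cuffs around vessels and airways. Smooth muscle contracts when calcium activates myosin light chain kinase, and many of its contractile genes carry a promoter element, the CArG box, that binds serum response factor (SRF) together with myocardin.

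Levels are given in FPKM, fragments counted per length of transcript and per size of the library, always in the order of mice 1, 2, 3 and 4. Differences are *Acta2-tdT* minus *Pdgfra-tdT* on the log2(FPKM + 1) scale, which understates the change of low genes, and a gene was called when its Benjamini-Hochberg adjusted p-value in limma was under 0.05. The depth of the libraries is unknown, since FPKM carry no counts. Nuclear protein-coding genes summed to 35603 to 57788 FPKM in the *Acta2-tdT* mice and to 29964 to 59840 in the *Pdgfra-tdT* mice (exact two-sided permutation test over 70 labellings, p = 0.543). FPKM of at least 1 was reached by 3634 to 5891 protein-coding genes in *Acta2-tdT* and by 2035 to 6479 in *Pdgfra-tdT* mice (exact permutation p = 0.314). *Pdgfra-tdT* mouse 3 stood apart from its group: it had 6479 such genes against 2035 to 2345 in the other *Pdgfra-tdT* mice, and mitochondrial genes made up 41.8% of its FPKM against 8.02% to 13.4%. In *Acta2-tdT* mice the mitochondrial share was 19.5% to 31.8%. Small non-coding RNA made up 33.4% to 39.6% of FPKM in *Acta2-tdT* mice, 49.5% to 55.7% in *Pdgfra-tdT* mice 1, 2 and 4, and 24.3% in mouse 3, so beside that mouse both shares separated the lines, and their part in the results was not tested. Across genes, which are not independent replicates, its Pearson correlation with the other *Pdgfra-tdT* mice was 0.266 to 0.325, while it was 0.918 to 0.931 among those 3 and 0.854 to 0.928 among the *Acta2-tdT* mice. Mouse 3 was thus closer to the *Acta2-tdT* mice, at 0.603 to 0.667, than to its own group. The other *Pdgfra-tdT* mice correlated with the *Acta2-tdT* mice at 0.394 to 0.677. Every gene named below as called on the deposited values of all 8 mice was also called without *Pdgfra-tdT* mouse 3, and without it the counts of most lists were higher, as given below.

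*Acta2* and *Pdgfra* themselves separated the lines in the direction of the labels. *Acta2* (ENSMUSG00000035783, chromosome 19 of GRCm38 from 34241090 to 34255336) had 139, 180.5, 256 and 314 FPKM in the *Acta2-tdT* mice and 2.59, 6.62, 8.92 and 11.0 FPKM in the *Pdgfra-tdT* mice. Its lowest *Acta2-tdT* mouse was far above its highest *Pdgfra-tdT* mouse, with a difference of 4.82 ± 0.50 (SE, adjusted p = 0.00138) and 4.95 (adjusted p = 0.000337) without *Pdgfra-tdT* mouse 3. *Pdgfra* (ENSMUSG00000029231, chromosome 5 from 75152292 to 75198215) had 0.273, 0.562, 0.330 and 0.379 FPKM in the *Acta2-tdT* mice and 3.02, 2.18, 3.82 and 2.14 FPKM in the *Pdgfra-tdT* mice. The groups did not overlap, but the level was low in both, and the difference was -1.43 ± 0.21 (SE, adjusted p = 0.00471) and -1.31 (adjusted p = 0.000687) without mouse 3. Both genes kept their call when nuclear protein-coding FPKM were scaled to one sum per mouse and when any 1 mouse was left out.

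Of 8 other transcripts within 100000 bases of *Pdgfra*, 3 were higher in most or all *Pdgfra-tdT* mice, and the other 5 overlapped between the lines or were listed at 0. The pseudogene *Olfr1401-ps1* (chromosome 5 from 75141348 to 75141558) had 2.80, 0, 0 and 4.50 FPKM in *Acta2-tdT* and 24.5, 20.9, 16.3 and 20.8 FPKM in *Pdgfra-tdT* mice. The long non-coding RNA *Gm19583* (from 75110321 to 75147107) had 0.0329, 0.130, 0.114 and 0.179 FPKM against 2.36, 0.707, 0.552 and 0.953 FPKM. The pseudogene *Gm2040* (from 75108635 to 75108923) was listed at 0 in every *Acta2-tdT* mouse and at 2.84, 3.06, 0 and 4.91 FPKM in *Pdgfra-tdT* mice. The first and second of these did not overlap between the lines. None of them is protein-coding, and they were not part of the test. Near *Acta2*, the protein-coding *Stambpl1* had 0.924, 0.981, 1.33 and 1.25 FPKM against 0.311, 0.557, 0.306 and 0.282 FPKM, while *Fas* and *Ankrd22* overlapped between the lines, with means of 3.13 and 0.202 FPKM in *Acta2-tdT* and 3.26 and 0.215 FPKM in *Pdgfra-tdT* mice. Whether reads from the transgenes add to these loci was not tested, and the sense and antisense strand at *Pdgfra* cannot be told apart, since the library protocol does not keep the strand.

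Of 3846 tested protein-coding genes, 291 (7.57%) were called, 287 higher (7.46%) and 4 lower (0.104%) in *Acta2-tdT* cells. The unadjusted p-value of 884 genes lay under 0.05. Values of the lines did not overlap for 483 of the tested genes (12.6%), 433 higher (11.3%) and 50 lower (1.30%). The median difference over all tested genes was 0.51. This, the list medians and the counts of called list members below cover only genes that passed the filter. A gene could pass through the line in which it was high, so such counts are a description. Scaling nuclear protein-coding FPKM to one sum moved that median by -0.12 to 0.39 and gave 523 calls (13.6%), 518 higher (13.5%) and 5 lower (0.130%). Both forms of the values called 286 genes in common. The split between directions depended on the normalization, since quantile normalization, which forces one distribution on all mice, called 290 higher and 187 lower. Without *Pdgfra-tdT* mouse 3, 2617 of 4218 genes (62.0%) were called, 2436 higher (57.8%) and 181 lower (4.29%), and the median difference was 0.86. Over the wider set of 10375 genes fitted with all 16 mice, on scaled values, the saline median was 0.15, and it was 2.92 for 13 contractile, 1.17 for 10 pericyte, 1.59 for 7 duct myofibroblast, 0.67 for 20 interstitial matrix genes and 0.66 for 12 regulators of smooth muscle. The count was 183 and 192 without *Acta2-tdT* mouse 3 or 4, and 127, 120 and 128 without *Pdgfra-tdT* mouse 1, 2 or 4.

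**Figure D1:**
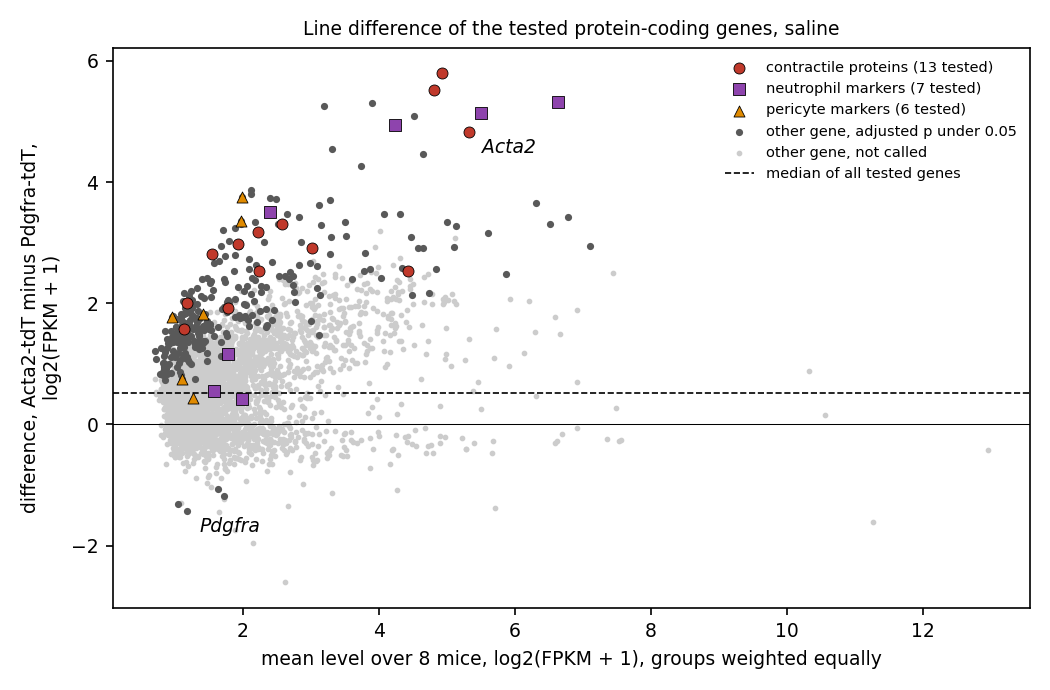
Each point is 1 of 3846 tested protein-coding genes in the 8 saline-treated mice, with its mean level on the x axis and its line difference on the y axis, both in log2(FPKM + 1). Contractile (circles) and neutrophil genes (squares) reach the largest positive differences, and the dashed median of all tested genes lies at 0.51, above 0.

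Among the called genes with a common name and no overlap between the lines, the 15 with the largest rise included genes of contractile or sarcomeric proteins and genes of neutrophils. In order of size they were *Myl9*, *Tpm2*, *S100a8*, *Mustn1*, *Actc1*, *S100a9*, *Gpx3*, *Retnlg*, *Acta2*, *Fxyd1*, *Rarres2*, *Ifitm1*, *Tcap*, *Higd1b* and *Il1b*, from 5.79 to 3.74. All 15 kept their call after scaling, after quantile normalization, with sample quality weights, with a pseudocount of 0.1, and with any 1 of the 8 mice left out. The secreted glutathione peroxidase gene *Gpx3* had 111, 53.7, 133 and 389 FPKM in the *Acta2-tdT* mice and 2.70, 1.73, 2.58 and 5.53 FPKM in the *Pdgfra-tdT* mice, a difference of 5.09 ± 0.63 (SE, adjusted p = 0.00218). *Fxyd1*, which encodes phospholemman, a regulator of the sodium pump in muscle, had 29.99, 31.5, 75.8 and 67.9 FPKM in the *Acta2-tdT* mice and 0.766, 0.201, 5.31 and 0.324 FPKM in the *Pdgfra-tdT* mice, a difference of 4.55 ± 0.62 (SE, adjusted p = 0.00340). *Rarres2*, the gene of the chemoattractant chemerin, had 100.2, 78.7, 168 and 141 FPKM in the *Acta2-tdT* mice and 3.92, 2.95, 10.4 and 2.70 FPKM in the *Pdgfra-tdT* mice. It differed by 4.46 ± 0.50 (SE, adjusted p = 0.00147), and for both *Fxyd1* and *Rarres2* the highest *Pdgfra-tdT* value was that of mouse 3. *Ifitm1*, an interferon-induced membrane protein gene, had 49.6, 29.2, 83.5 and 88.4 FPKM in the *Acta2-tdT* mice and 2.08, 4.14, 0.381 and 2.86 FPKM in the *Pdgfra-tdT* mice, a difference of 4.27 ± 0.56 (SE, adjusted p = 0.00281).

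Contractile protein genes were higher in *Acta2-tdT* cells as a group: 12 of the 13 members were called higher, as were 7.46% of all tested genes, none was lower, and the median difference was 2.91 beside 0.51 for all tested genes. The list was summed to 534, 585, 993 and 1148 FPKM in *Acta2-tdT* and to 13.2, 20.8, 66.2 and 32.3 FPKM in *Pdgfra-tdT* mice. All 13 were called higher after scaling, against 13.5% of all genes, and without *Pdgfra-tdT* mouse 3, against 57.8%, and between 9 and 13 were called with any 1 mouse left out. *Myl9* (chromosome 2 from 156775420 to 156781658), the regulatory light chain of smooth muscle myosin, had 156, 154, 297 and 369 FPKM in the *Acta2-tdT* mice and 2.60, 2.19, 4.10 and 3.81 FPKM in the *Pdgfra-tdT* mice. It had the largest difference of the comparison, 5.79 ± 0.45 (SE, adjusted p = 0.000506). *Tpm2* (chromosome 4 from 43514711 to 43523595), a tropomyosin that lies along the actin filament, had 135, 137, 269 and 258 FPKM in the *Acta2-tdT* mice and 2.04, 3.03, 3.93 and 3.88 FPKM in the *Pdgfra-tdT* mice, a difference of 5.52 ± 0.43 (SE, adjusted p = 0.000506). In *Acta2-tdT* mice both genes stood near the level of *Acta2*.

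The markers that define differentiated smooth muscle were lower in level but as cleanly separated. *Actg2*, the enteric smooth muscle actin, had 10.3, 11.5, 26.4 and 31.3 FPKM in the *Acta2-tdT* mice and 0.441, 0.766, 1.01 and 1.57 FPKM in the *Pdgfra-tdT* mice, a difference of 3.30 ± 0.45 (SE, adjusted p = 0.00330). *Myh11*, the smooth muscle myosin heavy chain, had 7.31, 7.80, 11.6 and 13.2 FPKM in the *Acta2-tdT* mice and 0.305, 0.291, 0.543 and 0.334 FPKM in the *Pdgfra-tdT* mice, a difference of 2.97 ± 0.29 (SE, adjusted p = 0.00101). *Cnn1*, the gene of calponin, which binds actin and myosin, had 6.64, 8.19, 20.2 and 25.4 FPKM in the *Acta2-tdT* mice and 0.343, 0.600, 0.627 and 0.656 FPKM in the *Pdgfra-tdT* mice, a difference of 3.18 ± 0.45 (SE, adjusted p = 0.00398). No *Pdgfra-tdT* mouse reached the lowest *Acta2-tdT* mouse in any of these. *Tagln*, the gene of transgelin, had 4.71, 5.80, 8.07 and 9.30 FPKM in *Acta2-tdT* mice and at most 0.176 FPKM in *Pdgfra-tdT* mice, a difference of 2.81 ± 0.27 (SE, adjusted p = 0.000933). *Des*, the intermediate filament desmin, had 7.75, 8.23, 10.9 and 16.2 FPKM in the *Acta2-tdT* mice and 0.274, 0.818, 1.36 and 1.68 FPKM in the *Pdgfra-tdT* mice, a difference of 2.54 ± 0.37 (SE, adjusted p = 0.00471). The defining genes of smooth muscle, which the *Acta2* label stands for, were thus present in each *Acta2-tdT* library. *Tpm1*, another tropomyosin, was the member that missed the threshold, with 41.0, 44.2, 52.5 and 71.2 FPKM in the *Acta2-tdT* mice and 3.03, 4.78, 34.9 and 6.74 FPKM in the *Pdgfra-tdT* mice. It differed by 2.54 (adjusted p = 0.0587), by 2.33 (adjusted p = 0.0177) after scaling and by 3.20 (adjusted p = 0.000390) without *Pdgfra-tdT* mouse 3, whose value of 34.9 FPKM lay near the *Acta2-tdT* range. *Mylk*, the gene of myosin light chain kinase, had 5.11, 4.91, 6.12 and 6.61 FPKM in the *Acta2-tdT* mice and 0.195, 0.311, 3.21 and 0.474 FPKM in the *Pdgfra-tdT* mice, a difference of 1.91 ± 0.42 (SE, adjusted p = 0.0275). Here too the highest *Pdgfra-tdT* value was that of mouse 3, the difference without it was 2.33 (adjusted p = 0.000266), and the gene was called in 2 of the 8 fits that leave out a mouse. The actin genes share much of their coding sequence, and how fragments that match several of them were assigned is not given in the sources used here.

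**Figure D2:**
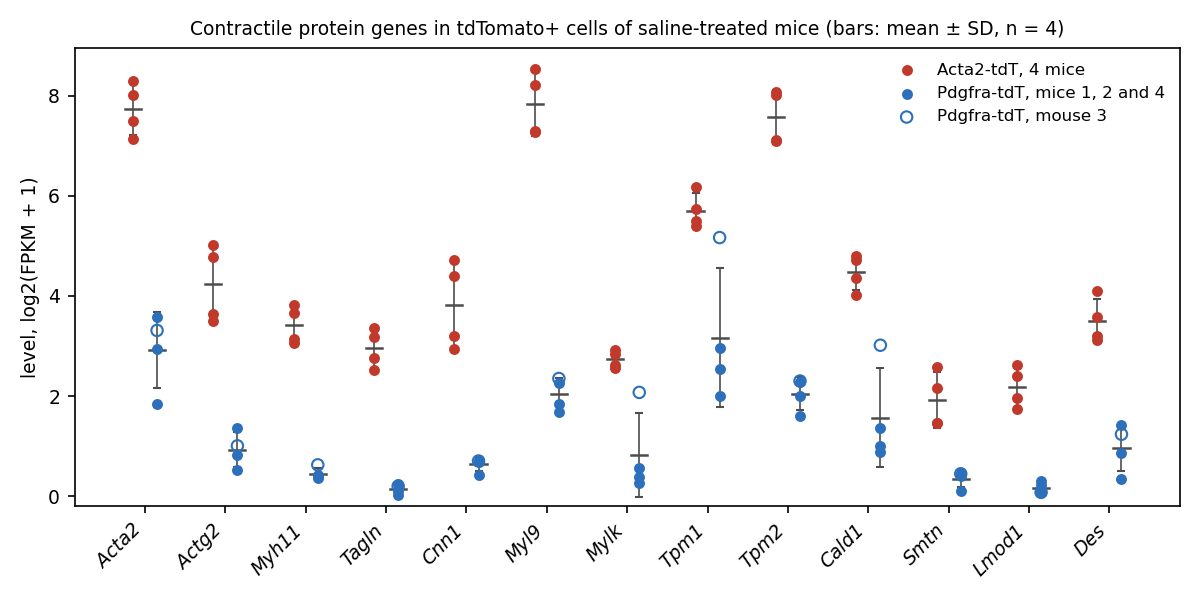
Levels of the 13 contractile protein genes, log2(FPKM + 1), in each saline-treated mouse, with *Acta2-tdT* in red, *Pdgfra-tdT* in blue and *Pdgfra-tdT* mouse 3 as an open circle (bars: mean ± SD, n = 4). The lines do not overlap for any of the 13 genes (12.6% of all tested genes), and the open circle is closest to the red points for *Tpm1*, *Cald1* and *Mylk*.

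*Myl9* and *Acta2* are shown with their CArG boxes, the letters through which SRF binds contractile genes. The search covered RefSeq promoters of GRCm38.p6 from 250 bases before to 50 bases after the start site, for the CArG box in its exact form (CC, then 6 bases of A or T, then GG) or with 1 of the 6 inner bases replaced by C or G. The general form of the box reads the same on either strand, so both strands were covered. The exact form was found in 1.63% of all 32851 promoters, and the wider form in 9.98%. Of the 13 contractile genes, 10 matched the promoter table (11 promoters), and *Actg2*, *Tagln* and *Myh11* did not. The exact form was found in *Myl9* alone, and the wider form in *Myl9* and *Acta2*. Each line gives 30 bases, 5′ to 3′ on the strand of the gene, with the box in capitals. The first *Myl9* box begins 161 bases before the start site and is the exact one, and the second begins 99 bases before it. The *Acta2* boxes begin 84 and 34 bases before the start site.
Myl9, chr2:156775293-156775322, plus strand: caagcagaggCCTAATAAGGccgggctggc
Myl9, chr2:156775355-156775384, plus strand: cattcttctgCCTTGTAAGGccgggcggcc
Acta2, chr19:34255438-34255467, minus strand: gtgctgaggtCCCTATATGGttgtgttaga
Acta2, chr19:34255388-34255417, minus strand: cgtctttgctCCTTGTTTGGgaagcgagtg
A match describes letters only, and no match in this window says nothing about binding of the factor elsewhere.

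The proteins that anchor actin filaments rose in part. Of 16 members 9 were tested and 3 were called, all higher in *Acta2-tdT* (7.46% of all tested genes), with a median difference of 1.17. *Pdlim3*, a PDZ and LIM domain protein that binds α-actinin, had 6.53, 4.70, 7.60 and 10.05 FPKM in the *Acta2-tdT* mice and 0.241, 0.288, 0.119 and 0.297 FPKM in the *Pdgfra-tdT* mice, a difference of 2.69 ± 0.28 (SE, adjusted p = 0.00130). *Flna*, the gene of filamin A, which crosslinks actin, had 6.42, 5.45, 5.62 and 9.37 FPKM in the *Acta2-tdT* mice and 0.203, 0.368, 0.898 and 0.364 FPKM in the *Pdgfra-tdT* mice, a difference of 2.40 ± 0.28 (SE, adjusted p = 0.00169). *Lpp*, a LIM protein of focal adhesions, had 2.68, 2.53, 3.20 and 4.41 FPKM in the *Acta2-tdT* mice and 0.779, 0.694, 1.12 and 0.787 FPKM in the *Pdgfra-tdT* mice, a difference of 1.17 ± 0.24 (SE, adjusted p = 0.0189). These 3 genes showed no overlap between the lines, as did 12.6% of all tested genes, but *Lpp* was called in 4 of the 8 fits that leave out a mouse. *Actn1* and *Vcl*, the genes of α-actinin 1 and vinculin, were too low to be tested, with at most 0.660 and 0.908 FPKM in *Acta2-tdT* mice. Without *Pdgfra-tdT* mouse 3, 6 of the 9 were called, among all-gene calls of 62.0%.

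Among regulators of smooth muscle tone, the nitric oxide receptor and an inhibitor of myosin phosphatase were higher in *Acta2-tdT* cells. Of 16 members 7 were tested and 3 were called higher (7.46% of all tested genes), with a median difference of 1.43 over the 7. *Ppp1r14a*, which encodes the myosin phosphatase inhibitor CPI-17, had 6.73, 7.74, 12.2 and 17.8 FPKM in the *Acta2-tdT* mice and 0.265, 0.0489, 0.316 and 0.178 FPKM in the *Pdgfra-tdT* mice, a difference of 3.25 ± 0.34 (SE, adjusted p = 0.00138). *Gucy1a3*, a subunit of soluble guanylate cyclase, the receptor for nitric oxide, had 3.84, 3.32, 6.16 and 7.71 FPKM in the *Acta2-tdT* mice and 0.378, 0.437, 0.345 and 0.435 FPKM in the *Pdgfra-tdT* mice, a difference of 2.103 ± 0.29 (SE, adjusted p = 0.00334). Its partner subunit *Gucy1b3* had 2.83, 2.16, 3.76 and 4.10 FPKM in the *Acta2-tdT* mice and 0.176, 0.0989, 0.203 and 0.203 FPKM in the *Pdgfra-tdT* mice, a difference of 1.82 ± 0.21 (SE, adjusted p = 0.00147). All 3 kept their call after scaling and with any 1 mouse left out, and 7 of 8 tested regulators were called without *Pdgfra-tdT* mouse 3, where 62.0% of all genes were called. *Myocd*, the gene of myocardin, had 1.27, 1.81, 4.27 and 4.00 FPKM in the *Acta2-tdT* mice and 0.442, 0.348, 2.32 and 0.455 FPKM in the *Pdgfra-tdT* mice, a difference of 1.04 (adjusted p = 0.169). It was not called, and the groups overlapped only through *Pdgfra-tdT* mouse 3, without which the difference was 1.35 (adjusted p = 0.00693). *Srf* and *Mkl1*, which encodes a relative of myocardin, stayed under 1 FPKM in every mouse and were not tested. The potassium and calcium channel genes *Kcnmb1*, *Kcnma1* and *Cacna1c* were under 1 FPKM as well.

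Pericyte markers were higher in *Acta2-tdT* cells for 5 of the 6 members that could be tested of 12 (7.46% of all tested genes), with a median difference of 1.801. Of these, *Higd1b*, *Cox4i2* and *Ndufa4l2* were under 1 FPKM in every *Pdgfra-tdT* mouse and passed the filter through the *Acta2-tdT* mice. *Higd1b*, a small mitochondrial protein gene used as a marker of lung pericytes, had 15.9, 14.9, 13.3 and 10.5 FPKM in the *Acta2-tdT* mice and 0.104, 0.0793, 0.150 and 0 FPKM in the *Pdgfra-tdT* mice. It was close to absent from *Pdgfra-tdT* cells, and the difference was 3.75 ± 0.26 (SE, adjusted p = 0.000506). *Cox4i2*, an isoform gene of a cytochrome c oxidase subunit, had 7.46, 10.1, 13.2 and 17.0 FPKM in the *Acta2-tdT* mice and 0.224, 0.138, 0.195 and 0.338 FPKM in the *Pdgfra-tdT* mice, a difference of 3.35 ± 0.31 (SE, adjusted p = 0.000878). *Pdgfrb*, the receptor gene that pericytes and smooth muscle share, had 3.54, 3.60, 4.04 and 5.00 FPKM in the *Acta2-tdT* mice and 0.187, 0.200, 1.30 and 0.225 FPKM in the *Pdgfra-tdT* mice. Its highest *Pdgfra-tdT* value was that of mouse 3 and still lay below every *Acta2-tdT* mouse, with a difference of 1.82 ± 0.29 (SE, adjusted p = 0.00583). *Ndufa4l2*, a hypoxia-induced mitochondrial gene, had 1.63, 2.36, 3.14 and 3.65 FPKM in the *Acta2-tdT* mice and 0.0546, 0.0969, 0 and 0.0598 FPKM in the *Pdgfra-tdT* mice, a difference of 1.78 ± 0.20 (SE, adjusted p = 0.00147). The cation channel gene *Trpc6* differed by 0.75 (adjusted p = 0.0497) and by 0.59 (adjusted p = 0.152) after scaling, so its call was lost. It was the only called list member to lose its call on scaling. The classical markers *Cspg4*, the gene of NG2, and *Rgs5* were low in both lines, at 0.409 to 0.588 and 0.210 to 0.642 FPKM in *Acta2-tdT* mice, and were not tested. The list was summed to 36.9, 38.0, 43.5 and 51.5 FPKM against 4.95, 3.61, 6.50 and 3.62 FPKM, so the pericyte sum of the *Acta2-tdT* mice was small beside their contractile sum. Without *Pdgfra-tdT* mouse 3, 6 of 7 tested pericyte markers were called higher, as were 57.8% of all tested genes. In these bulk samples fewer cells of a type and less RNA per cell cannot be told apart.

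Markers of the myofibroblasts at alveolar ducts moved with the *Acta2* lineage. All 5 tested members of 8 were called higher, before and after scaling (7.46% and 13.5% of all tested genes), with a median difference of 2.22. Of these, *Aspn* and *Hhip* were under 1 FPKM in every *Pdgfra-tdT* mouse and passed the filter through the *Acta2-tdT* mice. *Mustn1*, a small nuclear protein gene of musculoskeletal tissue that vascular smooth muscle also expresses, had 59.4, 78.4, 139 and 114 FPKM in the *Acta2-tdT* mice and 1.03, 0.255, 5.21 and 0.984 FPKM in the *Pdgfra-tdT* mice. The *Pdgfra-tdT* mice lay far below, mouse 3 highest among them, and the difference was 5.31 ± 0.57 (SE, adjusted p = 0.00139) and 5.77 (adjusted p = 0.000160) without that mouse. *P2ry14*, a receptor gene for UDP-sugars, had 8.49, 6.02, 9.75 and 15.1 FPKM in the *Acta2-tdT* mice and 0.918, 0.516, 0.243 and 1.64 FPKM in the *Pdgfra-tdT* mice, a difference of 2.56 ± 0.38 (SE, adjusted p = 0.00471). *Aspn*, the gene of the proteoglycan asporin, had 4.01, 4.17, 6.43 and 7.61 FPKM in the *Acta2-tdT* mice and 0.191, 0.378, 0.368 and 0.569 FPKM in the *Pdgfra-tdT* mice, a difference of 2.22 ± 0.27 (SE, adjusted p = 0.00210). Both were also apart between the lines. *Hhip*, a hedgehog inhibitor gene, had 3.84, 1.45, 2.27 and 3.11 FPKM in the *Acta2-tdT* mice and 0.119, 0.173, 0.648 and 0.116 FPKM in the *Pdgfra-tdT* mice, a difference of 1.51 ± 0.25 (SE, adjusted p = 0.00788) that was called in 5 of the 8 fits that leave out a mouse. *Tgfbi*, the gene of a TGF-β-induced matrix protein, differed by 1.24 ± 0.29 (SE, adjusted p = 0.0334) and was called in 2 of the 8 fits that leave out a mouse. Without *Pdgfra-tdT* mouse 3, 5 of 6 tested markers were called higher, against 57.8% of all genes. *Cdh4* and *Lgr6* were low in both lines and were not tested.

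Fibroblast markers did not set the *Pdgfra-tdT* cells apart, with the exception of *Pdgfra*. Of 12 alveolar fibroblast markers 3 were tested, and *Pdgfra* was the one called, lower in *Acta2-tdT* as were 0.104% of all tested genes. *Tcf21*, a transcription factor gene of lung fibroblasts, had 0, 0.306, 0.345 and 0.218 FPKM in the *Acta2-tdT* mice and 0.484, 0, 0.868 and 0 FPKM in the *Pdgfra-tdT* mice. *Wnt2*, a growth factor gene of alveolar fibroblasts, had 0, 0.131, 0.199 and 0.247 FPKM in the *Acta2-tdT* mice and 0, 0.0519, 0 and 0.239 FPKM in the *Pdgfra-tdT* mice. Both were at or near 0 in both lines, and 9 of the 12 markers did not reach the level for testing, so beside *Pdgfra* itself most alveolar fibroblast markers were low or absent in the *Pdgfra-tdT* libraries. *Inmt*, a methyltransferase gene abundant in alveolar fibroblasts, had 7.36, 16.9, 10.7 and 35.5 FPKM in the *Acta2-tdT* mice and 3.22, 0.501, 10.9 and 0.654 FPKM in the *Pdgfra-tdT* mice. The *Acta2-tdT* values reached the higher levels, with a difference of 2.25 (adjusted p = 0.116) as deposited and of 2.08 (adjusted p = 0.0445) after scaling, when it was called.

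Of 12 adventitial fibroblast markers 6 were tested, and 2 were called higher in *Acta2-tdT* cells, against 7.46% of all tested genes. *Pcolce2*, an enhancer of procollagen processing, had 3.47, 3.07, 4.28 and 5.63 FPKM in the *Acta2-tdT* mice and 0.505, 0.456, 0.902 and 0.643 FPKM in the *Pdgfra-tdT* mice, a difference of 1.64 ± 0.25 (SE, adjusted p = 0.00557). *Lum*, the gene of the collagen-binding proteoglycan lumican, had 4.06, 2.36, 3.60 and 3.67 FPKM in the *Acta2-tdT* mice and 0.3001, 0.423, 0.773 and 1.49 FPKM in the *Pdgfra-tdT* mice, a difference of 1.37 ± 0.28 (SE, adjusted p = 0.0208). *Pcolce2* was called in all 8 fits that leave out a mouse and *Lum* in 3. *Dcn*, the gene of decorin, had 7.45, 12.1, 18.2 and 25.8 FPKM in the *Acta2-tdT* mice and 2.78, 1.25, 44.1 and 3.99 FPKM in the *Pdgfra-tdT* mice, and *Pi16*, a marker of adventitial progenitors, had 0.513, 0.561, 2.80 and 3.20 FPKM in the *Acta2-tdT* mice and 0.320, 0.122, 5.38 and 0.270 FPKM in the *Pdgfra-tdT* mice. In both genes *Pdgfra-tdT* mouse 3 was the highest of all 8 mice, and the other *Pdgfra-tdT* mice were the lowest. The summed level of both fibroblast lists was 40.9, 60.0, 70.3 and 111 FPKM in *Acta2-tdT* and 23.5, 16.4, 409.8 and 25.0 FPKM in *Pdgfra-tdT* mice. Most of the sum in mouse 3 came from *Ly6a*, at 292 FPKM against 4.87 to 7.93 FPKM in the other *Pdgfra-tdT* mice, which endothelial cells express too. Without mouse 3, 7 of 10 tested fibroblast markers were called higher and *Pdgfra* lower, where 57.8% of all genes were called higher.

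The fibrillar collagen genes were not called at rest, whereas several other matrix genes were. *Col1a1* had 2.06, 1.76, 1.86 and 2.44 FPKM in the *Acta2-tdT* mice and 0.353, 1.56, 2.24 and 3.65 FPKM in the *Pdgfra-tdT* mice, a difference of 0.17 ± 0.38 (SE, adjusted p = 0.807). *Col1a2* had 2.97, 2.71, 3.09 and 3.87 FPKM in the *Acta2-tdT* mice and 0.232, 1.58, 3.23 and 2.65 FPKM in the *Pdgfra-tdT* mice and *Col3a1* 2.26, 1.84, 1.71 and 2.55 FPKM in the *Acta2-tdT* mice and 0.139, 0.579, 2.19 and 1.44 FPKM in the *Pdgfra-tdT* mice. For these fibrillar collagens the ranges overlapped, and the differences were 0.64 (adjusted p = 0.369) and 0.67 (adjusted p = 0.271). Without *Pdgfra-tdT* mouse 3 they were 0.26 (adjusted p = 0.565), 0.87 (adjusted p = 0.0558) and 0.91 (adjusted p = 0.0169) in that order.

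Of 20 interstitial matrix genes 11 were tested and 5 were called, all higher in *Acta2-tdT*, and 7 after scaling (7.46% and 13.5% of all tested genes), with a median difference of 1.28. After quantile normalization 2 of the 11 were called higher, with a median of 0.69, where 290 of 3846 genes were. *Mgp*, the gene of matrix Gla protein, an inhibitor of calcification made by vascular smooth muscle, had 122, 114, 184 and 141 FPKM in the *Acta2-tdT* mice and 7.74, 26.1, 33.3 and 44.9 FPKM in the *Pdgfra-tdT* mice. It was the most abundant of the list, and the difference was 2.49 ± 0.55 (SE, adjusted p = 0.0273). *Bgn*, the gene of biglycan, had 6.52, 5.97, 7.70 and 13.7 FPKM in the *Acta2-tdT* mice and 0.256, 0.884, 1.67 and 2.75 FPKM in the *Pdgfra-tdT* mice, a difference of 2.04 ± 0.43 (SE, adjusted p = 0.0220). *Postn*, the gene of periostin, had 5.43, 6.44, 7.37 and 6.82 FPKM in the *Acta2-tdT* mice and 0.406, 1.49, 2.099 and 2.19 FPKM in the *Pdgfra-tdT* mice, a difference of 1.63 ± 0.34 (SE, adjusted p = 0.0224). *Eln*, the gene of elastin, had 2.49, 2.01, 2.01 and 2.83 FPKM in the *Acta2-tdT* mice and 0.0426, 0.277, 0.656 and 0.603 FPKM in the *Pdgfra-tdT* mice, a difference of 1.28 ± 0.21 (SE, adjusted p = 0.00736). These 4 showed no overlap between the lines, as did 12.6% of all tested genes. When *Pdgfra-tdT* mouse 3 was left out, 11 of 13 tested matrix genes were called higher, against 57.8% of all genes. Called in few of the 8 fits that leave out a mouse were *Mgp* (1), *Postn* (2) and *Bgn* (4), and *Eln* was called in 6.

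Basement membrane genes were mostly low. Of 13 members 4 were tested, and *Lama4*, a laminin chain of vessel walls, was called higher, as were 7.46% of all tested genes. *Lama4* had 2.19, 1.33, 3.41 and 3.67 FPKM in the *Acta2-tdT* mice and 0.399, 0.261, 0.294 and 0.281 FPKM in the *Pdgfra-tdT* mice and a difference of 1.43 ± 0.25 (SE, adjusted p = 0.00873) that was called in 6 of the 8 fits that leave out a mouse. *Col4a1* and *Col4a2*, the ubiquitous type IV collagen chains, differed by 0.24 (adjusted p = 0.820) and 0.28 (adjusted p = 0.811). In both, *Pdgfra-tdT* mouse 3 was highest, at 6.87 and 10.02 FPKM, and the differences without it were 0.89 (adjusted p = 0.00228) and 1.01 (adjusted p = 0.00189). Without that mouse 4 of 4 tested members were called higher, against 57.8% of all genes. *Col15a1* stayed under 0.21 FPKM in every mouse.

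The PDGF pathway was split by receptor. *Pdgfrb* rose and *Pdgfra* fell in *Acta2-tdT* cells, as given above. The ligand gene *Pdgfa* had 1.74, 2.79, 0.979 and 4.25 FPKM in the *Acta2-tdT* mice and 0.164, 0.320, 1.12 and 0.342 FPKM in the *Pdgfra-tdT* mice, a difference of 1.16 (adjusted p = 0.0758) and of 1.04 (adjusted p = 0.0285) after scaling, when it was called. *Pdgfb* and *Pdgfc* stayed under 1 FPKM in every mouse. In the TGF-β pathway 4 of 11 members were tested and 1 was called higher, as were 7.46% of all tested genes. This was *Ltbp2*, a latent TGF-β binding protein gene, with 2.65, 2.12, 1.71 and 2.12 FPKM in the *Acta2-tdT* mice and 0.0668, 0.272, 0.220 and 0.353 FPKM in the *Pdgfra-tdT* mice, a difference of 1.36 ± 0.16 (SE, adjusted p = 0.00169). Leaving out *Pdgfra-tdT* mouse 3, 4 of 5 tested members were called higher (57.8% of all genes), and the median difference went from 0.61 to 1.16, while that of all genes went from 0.51 to 0.86. The ligand gene *Tgfb1* was at most 0.219 FPKM in any mouse, and *Tgfb2* and *Tgfb3* averaged 1.07 FPKM each in *Acta2-tdT* and 0.440 and 0.204 FPKM in *Pdgfra-tdT* mice. The receptor gene *Tgfbr1* had 10.2, 10.2, 9.37 and 9.47 FPKM in the *Acta2-tdT* mice and 12.2, 11.6, 9.33 and 11.0 FPKM in the *Pdgfra-tdT* mice, a difference of -0.15 (adjusted p = 0.807).

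**Figure D3:**
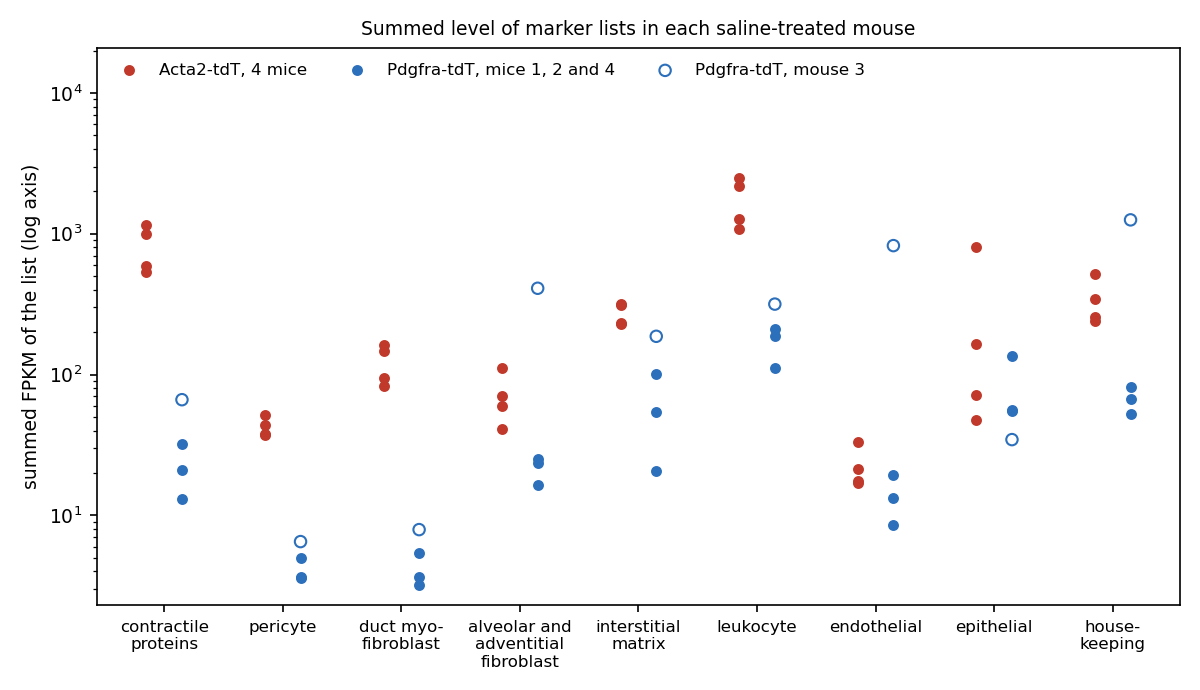
Summed FPKM (log axis) of 9 marker lists in each saline-treated mouse, *Acta2-tdT* in red, *Pdgfra-tdT* in blue and *Pdgfra-tdT* mouse 3 as an open circle. The contractile, pericyte, duct myofibroblast and leukocyte sums do not overlap between the lines, and in the fibroblast, endothelial and housekeeping lists mouse 3 lies above all other mice.

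Neutrophil transcripts were the most abundant leukocyte signal of the *Acta2-tdT* sort and were far lower in the *Pdgfra-tdT* sort. Of 12 markers 7 were tested and 4 were called, all higher in *Acta2-tdT* (7.46% of all tested genes), with a median difference of 3.50, and the summed level was 837, 748, 1560.3 and 1275 FPKM against 48.2, 32.6, 23.8 and 24.4 FPKM. *S100a8* (chromosome 3 from 90668978 to 90670035), which encodes a subunit of the neutrophil protein calprotectin, had 509, 460.5, 892 and 726 FPKM in the *Acta2-tdT* mice and 27.2, 13.7, 11.1 and 10.9 FPKM in the *Pdgfra-tdT* mice, a difference of 5.32 ± 0.41 (SE, adjusted p = 0.000506). In every *Acta2-tdT* mouse it was above *Acta2* itself. *S100a9*, the gene of its partner subunit, had 214, 215, 404 and 281 FPKM in the *Acta2-tdT* mice and 9.05, 9.09, 5.78 and 4.04 FPKM in the *Pdgfra-tdT* mice, a difference of 5.14 ± 0.42 (SE, adjusted p = 0.000559). *Retnlg*, a resistin-like gene of neutrophils, had 62.5, 59.5, 171 and 179.6 FPKM in the *Acta2-tdT* mice and 4.99, 1.81, 2.38 and 1.39 FPKM in the *Pdgfra-tdT* mice, a difference of 4.93 ± 0.55 (SE, adjusted p = 0.00147). The lowest *Acta2-tdT* mouse of each was several times above the highest *Pdgfra-tdT* mouse. *Lcn2*, the gene of lipocalin 2, which epithelium also makes, had 17.5, 3.53, 36.6 and 30.8 FPKM in the *Acta2-tdT* mice and 0.810, 0.495, 0.641 and 0.370 FPKM in the *Pdgfra-tdT* mice, a difference of 3.50 ± 0.64 (SE, adjusted p = 0.0110). The cytokine gene *Il1b* had 14.96, 11.1, 21.0 and 31.6 FPKM in the *Acta2-tdT* mice and 0.690, 0.391, 0.343 and 0.362 FPKM in the *Pdgfra-tdT* mice, a difference of 3.74 ± 0.38 (SE, adjusted p = 0.00118). In these 5 genes *Pdgfra-tdT* mouse 3 lay within or below the range of the rest of its group, and the difference of *S100a8* without it was 5.199 (adjusted p = 0.000202). *Lcn2* was called in 6 of the 8 fits that leave out a mouse, and the other 4 in all 8. The neutrophil receptor genes were closer between the lines. *Csf3r*, the receptor gene for granulocyte colony-stimulating factor, had 2.68, 2.45, 1.87 and 3.50 FPKM in the *Acta2-tdT* mice and 1.40, 1.69, 0.827 and 2.07 FPKM in the *Pdgfra-tdT* mice, a difference of 0.55 (adjusted p = 0.269). *Cxcr2*, a chemokine receptor gene, had 3.53, 3.13, 3.33 and 4.49 FPKM in the *Acta2-tdT* mice and 2.995, 3.23, 0.973 and 3.22 FPKM in the *Pdgfra-tdT* mice, a difference of 0.41 (adjusted p = 0.489). Neither was called. The granule genes *Ngp*, *Camp* and *Ltf* reached 31.2, 7.12 and 4.72 FPKM in *Acta2-tdT* mice but 0.714, 0 and 0.0190 FPKM in *Acta2-tdT* mouse 2, and were not tested. Without *Pdgfra-tdT* mouse 3, 10 of 12 tested neutrophil markers were called higher, against 57.8% of all genes, and their median was 1.70 beside 0.86 over all genes.

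General leukocyte genes followed, with 7 of 11 called higher, against 7.46% of all tested genes, and a median difference of 1.37. Quantile normalization left 2 of the 11 called higher, with a median of 0.71, where 290 of 3846 genes were. The housekeeping median was 1.204 as deposited and 0.19 after quantile normalization. Medians without *Pdgfra-tdT* mouse 3 were 1.33 for general leukocyte genes and 2.11 for housekeeping genes. The signaling adaptor gene *Tyrobp* had 95.6, 72.0, 120.0 and 168 FPKM in the *Acta2-tdT* mice and 23.2, 8.75, 4.46 and 11.8 FPKM in the *Pdgfra-tdT* mice, a difference of 3.27 ± 0.54 (SE, adjusted p = 0.00737). *Fcer1g*, the common Fc receptor γ chain gene, had 40.5, 53.9, 68.4 and 111 FPKM in the *Acta2-tdT* mice and 6.54, 4.67, 4.26 and 14.0 FPKM in the *Pdgfra-tdT* mice, a difference of 3.09 ± 0.51 (SE, adjusted p = 0.00736). *Cd52*, a leukocyte surface glycoprotein gene, had 54.5, 45.6, 76.3 and 94.3 FPKM in the *Acta2-tdT* mice and 7.21, 3.04, 4.34 and 6.06 FPKM in the *Pdgfra-tdT* mice, a difference of 3.47 ± 0.43 (SE, adjusted p = 0.00220). These 3 were called with any 1 mouse left out, and all 11 members without *Pdgfra-tdT* mouse 3, where 57.8% of all genes were called higher. *Ptprc*, the gene of the pan-leukocyte antigen CD45, had 2.64, 1.35, 2.64 and 2.99 FPKM in the *Acta2-tdT* mice and 0.875, 0.815, 0.357 and 0.993 FPKM in the *Pdgfra-tdT* mice. It did not overlap between the lines and narrowly missed the threshold, at 0.94 (adjusted p = 0.0563). *Laptm5* and *Coro1a*, a lysosomal and an actin-binding protein gene of leukocytes, differed by 1.37 (adjusted p = 0.0392) and 2.06 (adjusted p = 0.0208) and were called in 2 and 3 of the 8 fits that leave out a mouse.

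Macrophage and lymphocyte markers were not called on the deposited values of all 8 mice without weights. With sample quality weights 6 of 11 and 1 of 2 tested markers were called higher, where 60.6% of all genes were, and without *Pdgfra-tdT* mouse 3 they were called higher for 7 of 12 and 2 of 3 tested markers, shares near the 57.8% of all genes called higher there. With all mice, none of 11 tested macrophage and antigen presentation genes passed in limma on the deposited values, although 3 had an unadjusted p-value under 0.05, and *C1qa* and *C1qb*, the genes of complement C1q chains, passed after scaling. *Lyz2*, the gene of lysozyme, was high in both lines, with 67.6, 35.9, 112 and 174 FPKM in the *Acta2-tdT* mice and 69.5, 31.8, 24.3 and 58.7 FPKM in the *Pdgfra-tdT* mice. *Ctss* and *Cd68*, lysosomal genes of macrophages, differed by 0.80 (adjusted p = 0.391) and 1.07 (adjusted p = 0.266). *C1qa* had 10.9, 8.80, 15.3 and 78.4 FPKM in the *Acta2-tdT* mice and 1.29, 1.54, 3.86 and 5.92 FPKM in the *Pdgfra-tdT* mice, with *Acta2-tdT* mouse 4 several times above the rest. Of 14 lymphocyte markers 2 were tested and none was called in limma on the deposited values without weights, 1 with an unadjusted p-value under 0.05, and the CD3 chain genes *Cd3e* and *Cd3g* of the T cell receptor complex stayed under 0.6 FPKM, with *Cd3d* at 0.896 to 1.56 FPKM in all mice. Over the 4 leukocyte lists, 31 of 52 genes were tested and 11 were called, 13 after scaling and 6 after quantile normalization, all higher in *Acta2-tdT*. Of all 3846 tested genes 7.46%, 13.5% and, after quantile normalization, 290 genes were called higher. Leaving out *Acta2-tdT* mouse 1 or 2 gave 7 or 18 calls, among 232 or 377 over all genes. Leaving out *Pdgfra-tdT* mouse 1, 2 or 4 gave 7, 6 or 6, among 127, 120 or 128 over all genes. Leaving out *Pdgfra-tdT* mouse 3 gave 30 of 38 tested, where 57.8% of all genes were called higher. The summed level of the 4 lists was 1267, 1086, 2195 and 2501 FPKM in *Acta2-tdT* and 209, 111, 316 and 189 FPKM in *Pdgfra-tdT* mice. It was thus above the contractile sum in each mouse of both lines, and the part of leukocyte RNA in the other line differences was not tested.

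Endothelial RNA marked the library that stood apart. *Pecam1*, the adhesion molecule gene of endothelium, had 0.375, 0.251, 0.749 and 0.654 FPKM in the *Acta2-tdT* mice and 0.663, 0.252, 39.1 and 0.290 FPKM in the *Pdgfra-tdT* mice. *Cdh5*, the gene of VE-cadherin, had 15.6 FPKM in *Pdgfra-tdT* mouse 3 and at most 0.284 FPKM elsewhere, and *Kdr*, the gene of a VEGF receptor, had 9.66 FPKM and at most 0.638 FPKM elsewhere. The list was summed to 17.6, 17.1, 21.5 and 33.3 FPKM in *Acta2-tdT* and 19.5, 8.55, 823 and 13.2 FPKM in *Pdgfra-tdT* mice. In the other 7 mice the sums overlapped between the lines. None of 5 tested members was called in limma, and none had p under 0.05 before adjustment. Without mouse 3, 1 of 5 was called higher in *Acta2-tdT*, against 57.8% of all genes. The median difference was -0.77 with mouse 3 and 0.72 without it. *B2m*, the ubiquitous light chain of class I molecules, was at 729 FPKM in that mouse against 6.57 to 15.6 FPKM in its group.

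Other cell types gave little signal that followed the line. Of 14 epithelial markers 5 were tested and none was called in limma or had an unadjusted p-value under 0.05. *Sftpc*, a surfactant protein gene, had 2.89, 0.615, 15.5 and 7.01 FPKM in the *Acta2-tdT* mice and 6.97, 1.39, 1.92 and 15.5 FPKM in the *Pdgfra-tdT* mice, and *Sftpb* and *Sftpa1* were at most 0.186 and 1.61 FPKM. *Acta2-tdT* mouse 3 had an epithelial sum of 802 FPKM against 47.9 to 164 FPKM in its group, through the club cell gene *Scgb1a1* at 767 FPKM. The mesothelial markers *Msln*, *Upk3b* and *Wt1* were at most 1.02 FPKM in any mouse, and none of the 7 markers was tested. The globin genes *Hba-a1*, *Hba-a2* and *Hbb-bs*, near-identical copies of which can share fragments, reached 7.18, 8.65 and 8.03 FPKM in *Acta2-tdT* and 8.18, 13.9 and 12.2 FPKM in *Pdgfra-tdT* mice, and none of 3 tested erythroid genes was called in limma or had an unadjusted p-value under 0.05.

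Of 9 cardiac muscle markers 3 were tested, and *Actc1* and *Tnnt2* were called higher in *Acta2-tdT* cells, as were 7.46% of all tested genes. *Actc1*, the cardiac α-actin gene, had 30.8, 44.3, 60.1 and 114 FPKM in the *Acta2-tdT* mice and 0.801, 0.335, 0.459 and 0.331 FPKM in the *Pdgfra-tdT* mice, a difference of 5.26 ± 0.46 (SE, adjusted p = 0.000626). *Tnnt2*, the gene of cardiac troponin T, had 2.89, 3.05, 3.21 and 6.56 FPKM in the *Acta2-tdT* mice and 0.120, 0.286, 0.134 and 0.295 FPKM in the *Pdgfra-tdT* mice, a difference of 1.97 ± 0.26 (SE, adjusted p = 0.00289). The third, *Actn2*, the gene of α-actinin 2 of the Z disc, had 2.38, 2.74, 3.34 and 3.08 FPKM in the *Acta2-tdT* mice and 3.48, 3.50, 4.05 and 3.42 FPKM in the *Pdgfra-tdT* mice. Every *Acta2-tdT* mouse was below every *Pdgfra-tdT* mouse, but the difference of -0.25 (adjusted p = 0.585) was not called. *Myh6*, *Tnni3* and *Nppa*, which are abundant in heart muscle cells, stayed at or under 0.430 FPKM in every mouse. *Tcap*, the gene of telethonin in the Z disc of striated muscle, was no member of the list and had 15.7, 8.23, 12.7 and 34.1 FPKM in the *Acta2-tdT* mice and 0.335, 0, 0 and 0.248 FPKM in the *Pdgfra-tdT* mice, a difference of 3.86 ± 0.43 (SE, adjusted p = 0.00147).

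Immediate early genes, which cells switch on soon after a stimulus, were higher in *Acta2-tdT* cells for 3 of 12 tested members of 14 (7.46% of all tested genes), with a median difference of 1.38, and for 11 of 12 without *Pdgfra-tdT* mouse 3, with a median of 2.11, where 57.8% of all genes were called higher and their median was 0.86. *Fos* had 25.6, 16.4, 27.1 and 64.9 FPKM in the *Acta2-tdT* mice and 1.54, 0.792, 2.74 and 1.22 FPKM in the *Pdgfra-tdT* mice, a difference of 3.62 ± 0.49 (SE, adjusted p = 0.00330). *Egr1* had 16.3, 7.22, 3.60 and 9.87 FPKM in the *Acta2-tdT* mice and 0.307, 0.417, 3.31 and 0.561 FPKM in the *Pdgfra-tdT* mice, a difference of 2.29 ± 0.53 (SE, adjusted p = 0.0331), and *Jund* differed by 1.43 ± 0.23 (SE, adjusted p = 0.00677). With a mouse left out, *Fos* was called in 8, *Jund* in 7 and *Egr1* in 2 of 8 fits. *Jun* had 6.40, 4.29, 10.5 and 16.5 FPKM in the *Acta2-tdT* mice and 0.990, 0.623, 32.7 and 0.838 FPKM in the *Pdgfra-tdT* mice and was not called, and *Fosb* was at most 0.264 FPKM. Housekeeping genes were not called, in 9 tested of 12 and with none at an unadjusted p-value under 0.05, but their median difference was 1.204. *Actb* had 149, 146, 159 and 279.9 FPKM in the *Acta2-tdT* mice and 27.5, 21.4, 298 and 36.6 FPKM in the *Pdgfra-tdT* mice. *Gapdh* had 13.9, 12.6, 18.3 and 26.5 FPKM in the *Acta2-tdT* mice and 10.6, 13.2, 12.9 and 13.7 FPKM in the *Pdgfra-tdT* mice, and *Eef1a1*, a translation factor gene, had 13.9, 12.4, 27.5 and 36.9 FPKM in the *Acta2-tdT* mice and 3.57, 2.60, 88.1 and 4.21 FPKM in the *Pdgfra-tdT* mice. In *Actb* and *Eef1a1* every *Pdgfra-tdT* mouse but mouse 3 lay below all *Acta2-tdT* mice. Without that mouse 8 of 9 housekeeping genes were called higher in *Acta2-tdT*, against 57.8% of all genes, with a median of 2.11. After quantile normalization, with all 8 mice, none was called and the median was 0.19. The part of such library-wide differences in the list results was not tested.

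**Figure D4:**
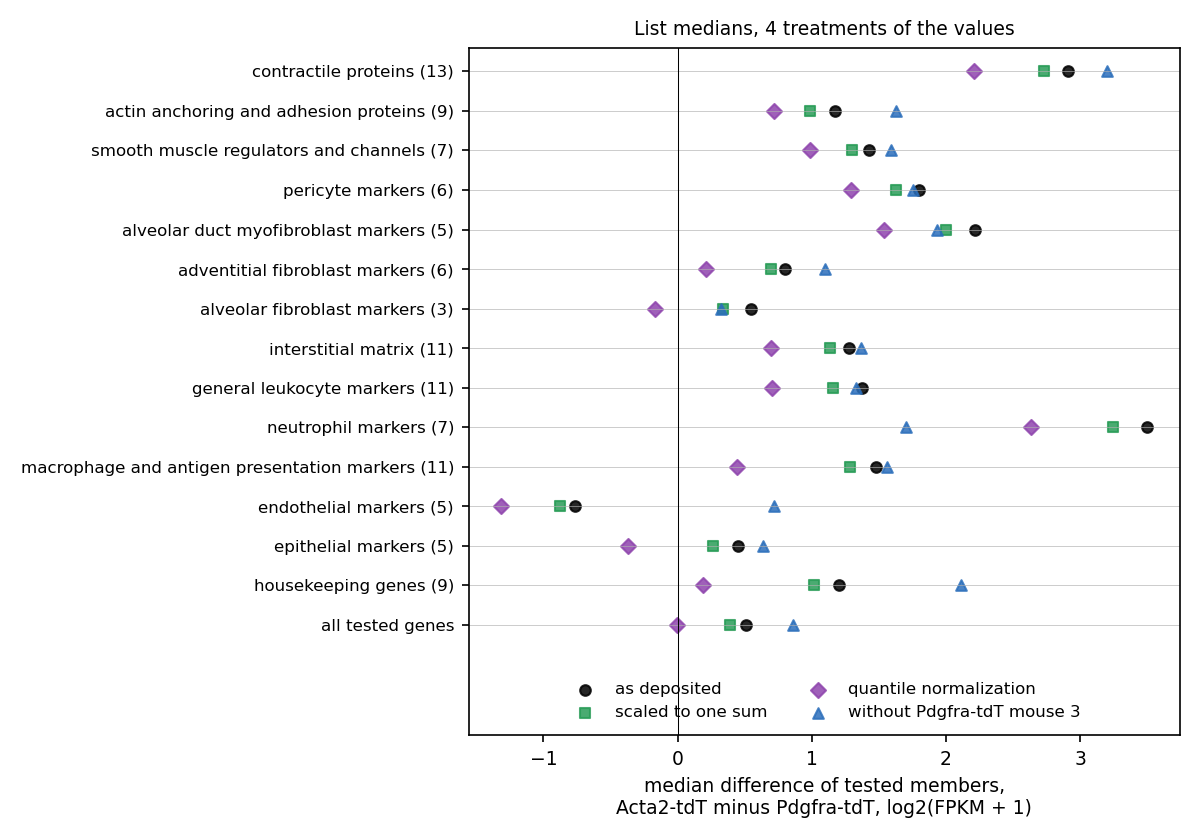
Median line difference of the tested members of each list (x axis, log2(FPKM + 1), number tested in brackets) with FPKM as deposited, scaled to one sum, quantile normalized, and without *Pdgfra-tdT* mouse 3. The contractile, pericyte and duct myofibroblast medians lie above the median of all tested genes under each treatment of the values, while the endothelial median changes sign without mouse 3 and the housekeeping median ranges from 0.19 to 2.11.

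With all 8 mice, 4 genes were called higher in *Pdgfra-tdT* cells as deposited and 5 after scaling, and of these *Pdgfra* alone belonged to a list. That count rested on the setting: it was 187 with quantile normalization, 233 with sample quality weights, 181 without *Pdgfra-tdT* mouse 3, and 585 with scaling and without that mouse. Quantile normalization also called the immediate early gene *Klf4* higher in *Pdgfra-tdT* cells, and scaling without mouse 3 called *Actn2* and the surfactant protein gene *Sftpd*. *Traf1*, an adaptor gene of tumor necrosis factor receptors, had 1.01, 0.641, 1.42 and 1.89 FPKM in the *Acta2-tdT* mice and 4.18, 3.70, 4.37 and 3.66 FPKM in the *Pdgfra-tdT* mice, a difference of -1.18 ± 0.27 (SE, adjusted p = 0.0311). *AY074887*, a protein-coding gene on chromosome 9 from 54950230 to 54950998, had 0.821, 1.13, 1.22 and 1.47 FPKM in the *Acta2-tdT* mice and 3.29, 2.84, 3.87 and 4.03 FPKM in the *Pdgfra-tdT* mice, a difference of -1.06 ± 0.24 (SE, adjusted p = 0.0306). The fourth was the predicted gene *Gm17087*, which the rule for named genes passes over and which is named because it completes the count. It had 0, 0.250, 0.301 and 0.810 FPKM against 1.97, 1.36, 4.56 and 1.81 FPKM, a difference of -1.30 (adjusted p = 0.0331). None of the 4 overlapped between the lines, but *Traf1* and *Gm17087* were called in 2 each and *AY074887* in 1 of the 8 fits that leave out a mouse, where *Pdgfra* was called in all 8. After scaling the defensin gene *Defb34* was called as well, at -2.004 (adjusted p = 0.0490).

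Values that did not pass, but with an unadjusted p-value under 0.05 and no overlap, began with *Gpihbp1*, the lipoprotein lipase anchor of capillaries. It had 0.571, 1.48, 1.98 and 2.35 FPKM in the *Acta2-tdT* mice and 7.19, 4.74, 207 and 4.44 FPKM in the *Pdgfra-tdT* mice, a difference of -2.60 (adjusted p = 0.204). Mouse 3 was highest by far, and without it the difference was -1.35 (adjusted p = 0.00570). *Defb34* differed by -1.95 (adjusted p = 0.120) and *Scgb2b26*, a secretoglobin gene, by -1.22 (adjusted p = 0.0963). The other 7 genes were *Olfr704*, *H2-T3*, *Zfp799*, *Ddx55*, *Dennd6a*, *Mcc* and *Mettl1*, with differences from -0.72 to -0.49 and levels under 4 FPKM in every mouse.

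Whether the line difference at rest was that seen in fibrosis was tested as the interaction of line and bleomycin over all 16 mice, on scaled FPKM. An interaction was called for 362 of 10375 genes (3.49%). Of the matrix genes 16 of 20 had one, each with a larger *Acta2-tdT* excess with bleomycin (2.45% of all genes), and the list median was 0.67 with saline and 3.34 with bleomycin. *Col1a1* differed by 0.07 with saline and by 5.23 with bleomycin, an interaction of 5.17 ± 0.67 (SE, adjusted p = 0.000183). For *Col1a2* and *Col3a1* the interactions were 4.64 ± 0.74 (SE, adjusted p = 0.00123) and 3.43 ± 0.68 (SE, adjusted p = 0.00658). All 13 contractile genes were called higher in *Acta2-tdT* with bleomycin, as were 20.0% of all genes, and 3 of them had an interaction. The difference of *Des* was larger with bleomycin, an interaction of 2.56 ± 0.50 (SE, adjusted p = 0.00611), while that of *Myh11* and that of *Lmod1* were smaller, with interactions of -1.77 ± 0.33 (SE, adjusted p = 0.00456) and -1.37 ± 0.29 (SE, adjusted p = 0.0113).

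After scaling, several pericyte genes differed less between the lines with bleomycin than at rest. Over all genes 3.49% had an interaction in either direction, and 2.45% had one toward a larger *Acta2-tdT* excess with bleomycin. Of 10 tested pericyte genes 4 had an interaction, each toward a smaller difference with bleomycin on scaled values. Without scaling *Cox4i2* alone kept such an interaction, *Ndufa4l2* was at -0.03 (adjusted p = 0.938), and *Pdgfrb*, *Cspg4* and *Abcc9* had an interaction toward a larger difference, at 2.81 (adjusted p = 0.000299), 3.08 (adjusted p = 4.26e-05) and 1.67 (adjusted p = 0.00431). *Higd1b* differed by 3.88 with saline and 0.72 with bleomycin, an interaction of -3.16 ± 0.53 (SE, adjusted p = 0.00170). *Cox4i2* differed by 3.41 and 0.37, an interaction of -3.04 ± 0.33 (SE, adjusted p = 3.21e-05). Of the 15 genes with the largest rises, 4 had an interaction, namely *Higd1b*, *Mustn1*, *Actc1* and *Tcap*. These 15 were chosen by their saline difference, which enters the interaction and favours a smaller difference with bleomycin, so their interactions are a description. Among the rest, *Acta2* was at 1.86 ± 0.76 (SE, adjusted p = 0.205) and *Tpm2* at 0.95 ± 0.66 (SE, adjusted p = 0.495). The line difference of *Mustn1* went from 5.33 to 2.24, an interaction of -3.09 ± 0.70 (SE, adjusted p = 0.0172). That of *Actc1* went from 5.27 to 2.22, an interaction of -3.05 ± 0.67 (SE, adjusted p = 0.0136), and that of *Tcap* from 3.93 to 0.48, an interaction of -3.45 ± 0.38 (SE, adjusted p = 3.21e-05). The *Pdgfra* difference was -1.67 at rest and -0.33 with bleomycin, an interaction of 1.34 ± 0.34 (SE, adjusted p = 0.0349).

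The size of the interactions, and for several genes their call, depended on the scaling. Summed protein-coding FPKM were several times higher in *Acta2-tdT* bleomycin mice, at 231064 to 463140 against 28512 to 137952 in *Pdgfra-tdT* bleomycin mice, and without scaling 6704 genes were called. *Col1a1* kept its interaction, at 7.62 (adjusted p = 2.74e-05). *Tcap* and *Cox4i2* kept a negative interaction, at -1.89 (adjusted p = 0.00826) and -1.19 (adjusted p = 0.0217), but *Mustn1*, *Actc1* and *Higd1b* were at -0.56 (adjusted p = 0.626), -0.63 (adjusted p = 0.511) and -0.89 (adjusted p = 0.195), and *Myh11* and *Lmod1* turned to 0.63 (adjusted p = 0.211) and 0.47 (adjusted p = 0.260). The bleomycin difference of *Pdgfra* itself turned to 1.60 (adjusted p = 0.00066). With a mouse left out, the scaled fit called 159, 189, 121 and 133 genes without *Acta2-tdT* bleomycin mouse 5, 6, 7 and 8, 861 without *Pdgfra-tdT* bleomycin mouse 5, and 252 to 455 otherwise. Of the 12 called interactions named on scaled values, that of *Pdgfra* was called in 7 of the 16 such fits, that of *Mustn1* in 14, and those of *Actc1* and *Lmod1* in 15, each lost without *Acta2-tdT* bleomycin mouse 7, and the other 8 in all 16.

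**Figure D5:**
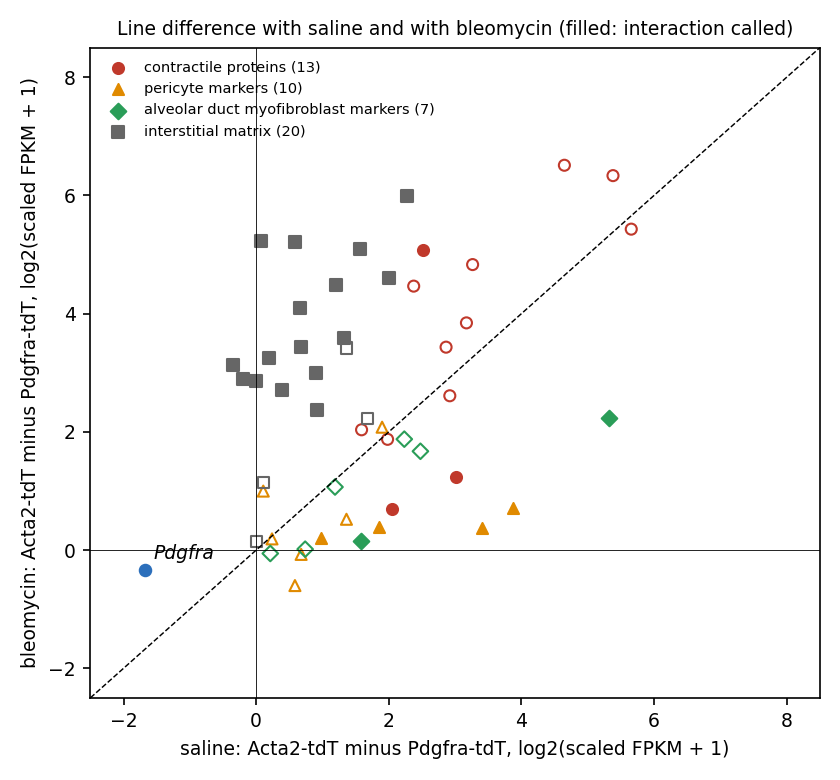
Line difference of each gene with saline (x axis) and with bleomycin (y axis), both log2(scaled FPKM + 1), for 4 lists and *Pdgfra*. Points on the dashed line have the same difference in both, filled points have a called interaction, and 16 of 20 matrix genes (squares) are filled above the line while 4 of 10 pericyte genes (triangles) are filled below it. Over all genes 3.49% had a called interaction, and 2.45% had one toward a larger *Acta2-tdT* excess with bleomycin.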

How the data were processed

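RNA from sorted tdTomato-positive cells was amplified with SmartSeq2, a full-length protocol that does not mark strand, and sequenced on an Illumina HiSeq instrument. Per the labels and the methods, the authors aligned reads with TopHat2 2.1.1 and Bowtie2 2.2.9 to GRCm38 (mm10) and deposited 1 table of FPKM per mouse made with Cufflinks 2.1.1, without scaling between mice. The deposited Cufflinks confidence bounds, also in FPKM, were not used. Cufflinks status was used as a filter. Each table holds 49534 rows of 49452 genes, 21974 of them protein-coding, and no pair of mice had identical values.

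FPKM of rows with the same Ensembl identifier were summed and transformed to log2(FPKM + 1). Protein-coding genes that reached 1 FPKM in 4 or more of the 8 mice (3 of 7 with a mouse left out) were fitted with limma 3.58.1 in R 4.3.3 (lmFit and eBayes with trend, no block, equal weights), and p-values were adjusted over all tested genes by the Benjamini-Hochberg method. The 10 protein-coding genes that Cufflinks marked as not OK in any saline-treated mouse were left out. In the scaled form, nuclear protein-coding FPKM of each mouse were brought to the median sum, 36471. The interaction was fitted over all 16 mice in the scaled form.

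Named genes were *Acta2*, *Pdgfra*, the 15 largest rises and falls (or all, where fewer) among called genes without overlap and with a common symbol, the 10 largest such falls at an unadjusted p-value under 0.05, and of each marker list the first 3 members and up to 4 called members. The part compared, the lists and the tests were chosen with earlier results of these data known. Some members of 1 list are not reported here. Other members and *Tcap* are named as further examples. On data simulated over 3846 genes for the saline comparison, 0, 121 and 174 of 200 changed genes were found at a log2 change of 1, 2 and 3, with 0, 9 and 13 false calls, and no gene was called when none was changed. Pearson correlations, summed list levels and figures were computed with Python 3.11.15, pandas 2.3.3, NumPy 2.4.6, SciPy 1.17.1 and matplotlib 3.10.9. The labels give no batch, and depth per library is not known from FPKM.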

Additional observations from a re-analysis of the deposited data

Results flagged for a closer look

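Of 110 groups of 4 saline-treated mice whose highest or lowest value was set against the rest, 19 held a mouse far from the others, 17 of them *Pdgfra-tdT* mouse 3. Chance would flag about 1 in 20 groups if the values were normally distributed. FPKM were not transformed for this check, so the rate by chance is not known here, and the measures share genes and libraries. *Pdgfra-tdT* mouse 3 had 41.8% of FPKM in mitochondrial genes, 6479 protein-coding genes of at least 1 FPKM, and a median of 0.175 FPKM over 1443 olfactory and vomeronasal receptor genes, against 0.309 to 0.336 FPKM in the other *Pdgfra-tdT* mice.

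Its summed FPKM were high for endothelial markers (823), housekeeping genes (1254), adventitial fibroblast markers (388), immediate early genes (153), TGF-β genes (94.4), actin anchoring proteins (35.4), basement membrane genes (24.3), smooth muscle regulators (19.2), PDGF genes (9.28) and Schwann cell markers (3.84). Of the named genes it stood far above the other *Pdgfra-tdT* mice for *Gpihbp1* (207 FPKM), *Rarres2* (10.4 FPKM), *Fxyd1* (5.31 FPKM) and *Mustn1* (5.21 FPKM). Apart from it, *Acta2-tdT* mouse 3 had an epithelial sum of 802 FPKM, and *Il1b* in *Pdgfra-tdT* mouse 1 was at 0.690 FPKM against 0.343 to 0.391 FPKM in its group.

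An interaction of line and bleomycin was called on scaled FPKM for *Tcap* (-3.45), *Higd1b* (-3.16), *Mustn1* (-3.09), *Actc1* (-3.05) and *Pdgfra* (1.34). All of these but *Pdgfra* were chosen by their saline difference, which enters the interaction, so theirs are a description. The call of *Pdgfra* was lost in several fits that leave out a mouse. Without scaling, the interactions of *Mustn1*, *Actc1* and *Higd1b* were not called.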

How the results depend on the processing

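*Acta2* and *Pdgfra* kept their direction and their call in the saline comparison in all settings in which they were tested. Among the values that changed sign, the endothelial median went from -0.77 to 0.72 without *Pdgfra-tdT* mouse 3, and with quantile normalization the medians of alveolar fibroblast (0.55 to -0.17), combined fibroblast (0.55 to -0.03), epithelial (0.45 to -0.37), lymphocyte (0.65 to -0.03) and Schwann cell markers (0.35 to -0.37) turned. Without scaling, the interactions of *Myh11* and *Lmod1* went to 0.63 and 0.47 and the bleomycin difference of *Pdgfra* from -0.33 to 1.60. The 291 calls (287 higher, 4 lower in *Acta2-tdT*) became 523 (518 higher) with scaling, 153 (151 and 2) without a filter, 110 (110 and 0) with a mean of at least 5 FPKM, 477 (187 lower) with quantile normalization, 2564 (2331 and 233) with sample quality weights, and 142 (139 higher) with all 16 mice in 1 fit. Called leukocyte markers, 11 in all, became 6 without a filter, 6 with quantile normalization, 23 with quality weights and 7 with all 16 mice. With a mean of at least 5 FPKM, 2 pericyte markers were called and no fibroblast marker was lower. Interactions numbered 6704 without scaling and 1729 with quality weights. The cause was not tested, beyond the smaller or larger number of genes tested under the filters.

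With a mouse left out, calls ranged from 120 to 2617, higher from 119 to 2436 and lower from 1 to 181, *Acta2* from 4.46 to 5.04, *Pdgfra* from -1.52 to -1.31, contractile proteins from 9 to 13, pericyte markers from 4 to 6, leukocyte markers from 6 to 30 and interactions from 121 to 861. The upper end of the first 3 and of the leukocyte markers came without *Pdgfra-tdT* mouse 3. Scaling together with leaving out that mouse, an alternative chosen after seeing the data, gave 2898 calls (2313 higher, 585 lower) and 29 leukocyte markers. The deviations of same-numbered mice of the lines correlated at 0.281, 0.393, 0.289 and -0.335, so the numbers were not taken to pair the mice, and with the replicate block 254 genes were called (251 higher, 3 lower). FPKM carry no counts, so the precision of low genes is unknown.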
